A study of Arabidopsis thaliana with 4 samples.

Results

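The response of wild-type *Arabidopsis thaliana* leaves to 6 h of polyethylene glycol (PEG) was read from 1 mRNA library of WT after PEG, set against 1 library of WT at 0 h. Genes were included when they reached 1 FPKM (fragments per transcript length, scaled to the fragments mapped in the library) in either library, which held for 16110 of the 27655 genes in the deposited table. Of those included, 89 stayed under 1.05 FPKM in both libraries, and 95 genes left out reached at least 0.95 FPKM. WT was Columbia, grown on soil in long days, and leaves of 3-week-old plants were sampled after watering with 20% PEG for 6 h or, for the 0 h library, before PEG. The labels call the plants seedlings, and RNA came from pooled leaves of several plants. The study, on the drought role of the nuclease gene *AtBBD1*, also sequenced 1 library each of p35S:AtBBD1 (an overexpressor, below OX) and of the *atbbd1* knock-out, both after 6 h of 20% PEG. No untreated library at 6 h was part of the 4 samples, so PEG and time of day cannot be told apart in any value below.

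PEG in the soil water lowers the water potential around roots, so that the plant takes up less water. Leaves then lose turgor, close their stomata and slow growth, which relies on cytosolic ribosomes, on enzymes that loosen cell walls, and on carbon and nitrogen taken up in the light. Starch is stored in the chloroplast by day and broken down at night, and many genes of starch turnover, light harvesting and nitrogen uptake follow the circadian clock.

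The estimated totals were 15726000 fragments for WT after PEG and 15331000 for WT at 0 h. With 1 library per condition no test was possible, and a gene was called higher or lower where its FPKM differed at least 2-fold. Intervals beside ratios are exact 95% binomial intervals on the reads recovered from FPKM, which cover counting error only. The leaf label held: the 5 mesophyll markers were all included and summed to 22294 FPKM after PEG and 32602 FPKM at 0 h. Of 7 root markers only *SCR* was included (6.36 FPKM after PEG and 19.4 FPKM at 0 h), and *IRT1*, *EXPA7*, *COBL9* and *PHT1;1* were listed at 0 in both libraries. Of 7 flower and meristem markers only *AG* was included, at 0.95 FPKM after PEG and 2.11 FPKM at 0 h. Trichome markers (2 of 5 included) summed to 2.2 FPKM after PEG and 25.6 FPKM at 0 h, nearly all from *TRY* at 0 h. Vascular markers (6 of 7) summed to 41.1 FPKM after PEG and 62.3 FPKM at 0 h. Guard cell markers (4 of 7) summed to 407 FPKM after PEG and 348 FPKM at 0 h, nearly all from *TGG1* (398 and 330 FPKM). The other guard cell markers included were lower after PEG than at 0 h: *MYB60* (2.80 and 7.92 FPKM), *KAT1* (4.02 and 6.35 FPKM) and *FAMA* (1.55 and 2.45 FPKM). The part of these cell types in the results was not tested. In such bulk samples fewer cells of a type and less RNA per cell cannot be told apart.

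Of the 16110 genes, 2553 (15.8%) were at least 2-fold higher after PEG and 2601 (16.1%) at least 2-fold lower, 32.0% in either direction. The median log2 ratio was 0.04, and the quartiles were -0.61 and 0.64. A difference of at least 16-fold was seen for 261 genes that were higher and 122 that were lower. Clock genes separated the libraries completely: the 7 evening genes included were all higher after PEG and summed to 309.5 FPKM, against 9.6 FPKM at 0 h. The 6 morning genes were all lower after PEG and summed to 67.8 FPKM, against 812 FPKM at 0 h. Of 14 drought and ABA marker genes 12 were higher and none lower, with sums of 3208 FPKM after PEG and 306 FPKM at 0 h. These clock and drought values stand beside every list described here, and their part in any of them was not tested.

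**Figure D1:**
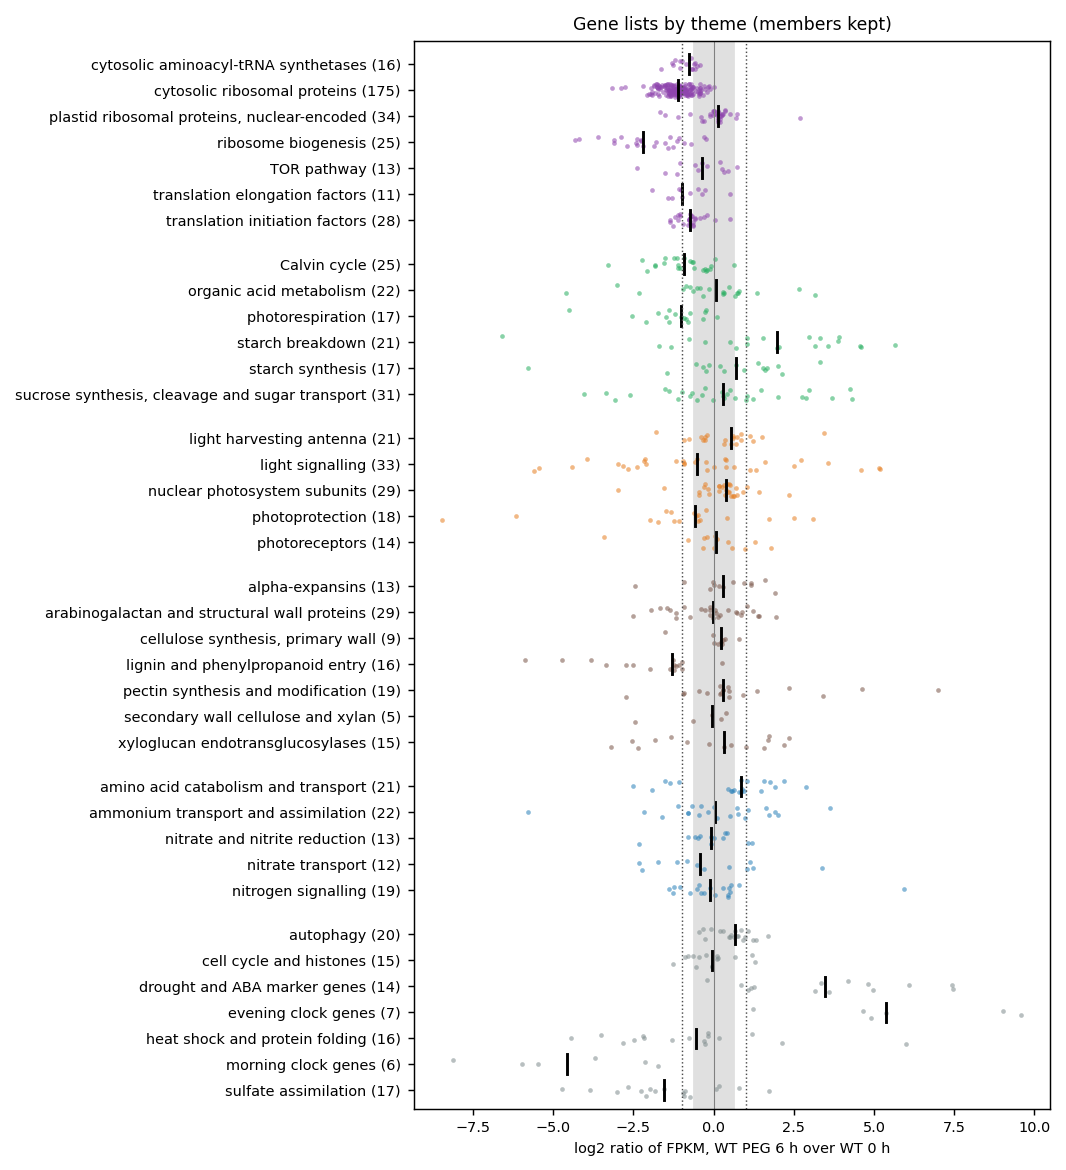
Log2 ratio of FPKM in WT after PEG over WT at 0 h (x axis) for the members of each gene list (y axis, number of members included in parentheses); each point is a gene, black ticks are list medians, dotted lines mark 2-fold, and the grey band spans the quartiles of all genes included, -0.61 to 0.64. Members listed at 0 in a library are not drawn; the median of cytosolic ribosomal proteins, -1.12, lies left of the band and that of starch breakdown, 1.97, right of it.

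Among genes for cytosolic ribosomes and their assembly, most were at least 2-fold lower after PEG, while 3 of 34 genes for chloroplast ribosomes were. Ribosomal protein genes annotated to both kinds of ribosome were counted as plastid after their values were seen. The contrast between these lists is therefore not independent of the values. Over the 7 translation lists, 157 of 301 genes were at least 2-fold lower and 1 was higher, with a median log2 ratio of -1.04 beside 0.04 for all genes. The 191 cytosolic ribosomal protein genes were taken from annotation notes, and 175 were included. Of these, 111 (63.4%) were called lower and none higher, beside 16.1% and 15.8% of all genes. Their FPKM summed to 9485 after PEG and 20093 at 0 h, that is, 1.5% of all FPKM after PEG and 3.3% at 0 h. The median member stood at 49.5 FPKM after PEG (highest 168) and at 107 FPKM at 0 h (highest 360). Large subunit genes (60 of 91 lower, median log2 ratio -1.16) and small subunit genes (45 of 73 lower, -1.09) were alike in these values. The sum was 8316 FPKM in OX and 9398 FPKM in *atbbd1* after PEG. Neither genotype has a 0 h library, since the only 0 h sample was WT, so their own change from 0 h is not known.

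Single genes of high and low abundance showed the same direction. *AT5G02960*, a small subunit S12/S23 family protein and the most abundant member, had 135 FPKM after PEG and 360 FPKM at 0 h, 2.67-fold lower (95% counting interval 2.52 to 2.83). *AT1G52300*, a large subunit protein, had 126 FPKM after PEG and 278 FPKM at 0 h, 2.21-fold lower (2.07 to 2.35). The S7e family gene *AT5G16130* was at 49.6 FPKM after PEG and 192 FPKM at 0 h, 3.87-fold lower (3.57 to 4.2). A less abundant member, the L6 gene *AT4G10450*, had 6.00 FPKM after PEG and 40.6 FPKM at 0 h, 6.77-fold lower. Of the 175 genes, 174 had a ratio below 1, and the exception was the L41 gene *AT3G56020* with 57.7 FPKM after PEG and 56.7 FPKM at 0 h. Reads can be shared between near-identical copies of ribosomal protein genes, so the value of a single copy is less certain than the sum.

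The promoters were searched for short motifs, and those of *AT1G52300* and *AT5G16130* are printed because, unlike most of the list, they hold both the telo-box (AAACCCTA) and the site II motif (TGGGCC or TGGGCT), close to the start. Sequences are from RefSeq, TAIR10.1, and run 5′ to 3′ up to the base before the annotated transcript start, with motifs found on either strand in capitals. *AT1G52300* is on the minus strand (chr1:19476235-19476334) and *AT5G16130* on the plus strand (chr5:5268321-5268420).
AT1G52300: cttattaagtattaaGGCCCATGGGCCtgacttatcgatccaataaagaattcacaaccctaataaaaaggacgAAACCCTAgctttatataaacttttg
AT5G16130: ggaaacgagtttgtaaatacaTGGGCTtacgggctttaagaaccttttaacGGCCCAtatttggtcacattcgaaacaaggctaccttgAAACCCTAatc
In *AT1G52300* the telo-box starts 26 bases before the transcript start, and adjoining site II motifs on opposite strands start 85 and 79 bases before it. In *AT5G16130* the telo-box starts 11 bases before the start and the site II motifs 79 and 49 bases before it. Within 250 bases before the start, a site II motif was found for 68.6% of the 175 cytosolic ribosomal protein genes and for 24.1% of 16020 genes with a window. A telo-box was found for 20.0% and 3.7%, and both motifs for 16% and 1.5%. Among ribosomal protein genes the site II share was 69.4% in the 111 that were lower and 67.2% in the other 64. It was 35.3% for the 34 plastid ribosomal protein genes and, over all genes, 17.7% for higher genes, 24.1% for lower genes and 25.7% for those in neither set.

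Genes that build ribosomes in the nucleolus had a lower median than the ribosomal proteins did, a difference that was not tested. All 25 were below a ratio of 1, and 21 were called lower (84.0%, beside 16.1% of all genes). The median log2 ratio was -2.21, with sums of 198.9 FPKM after PEG and 773 FPKM at 0 h. *FIB1*, a fibrillarin that methylates ribosomal RNA, had 15.9 FPKM after PEG and 136 FPKM at 0 h, 8.58-fold lower (7.67 to 9.62). It was at 13.0 FPKM in OX and 13.3 FPKM in *atbbd1* after PEG. Its paralog *FIB2* had 1.00 FPKM after PEG and 19.9 FPKM at 0 h, 19.9-fold lower (12.9 to 32.5). *NOP56*, a partner of fibrillarin in small nucleolar particles, was 8.53-fold lower, and *NAP57*, the pseudouridine synthase dyskerin, 7.46-fold lower. The histone deacetylase *HDT1*, found in the nucleolus, had 2.56 FPKM after PEG and 30.9 FPKM at 0 h, and nucleolin *NUC-L1* had 36.0 FPKM after PEG and 96.5 FPKM at 0 h. The RNA helicases *PRH75* (31.8 FPKM after PEG and 51.5 FPKM at 0 h) and *RH36* (3.04 FPKM after PEG and 3.55 FPKM at 0 h) and the methylase *DIM1A* (13.2 FPKM after PEG and 16.4 FPKM at 0 h) stayed within 2-fold. The *FIB1* promoter (chr5:21293897-21294146, plus strand, RefSeq TAIR10.1) is shown with the same motifs in capitals, a telo-box 207 bases and site II motifs 163 and 148 bases before the start.
FIB1: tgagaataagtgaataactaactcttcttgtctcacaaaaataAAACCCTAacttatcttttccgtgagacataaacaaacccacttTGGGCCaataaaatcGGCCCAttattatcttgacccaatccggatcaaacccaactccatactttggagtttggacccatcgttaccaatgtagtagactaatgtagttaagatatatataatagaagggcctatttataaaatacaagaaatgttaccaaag
Of the 25 ribosome biogenesis windows, 52.0% held a site II motif, 20.0% a telo-box and 16% both.

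**Figure D2:**
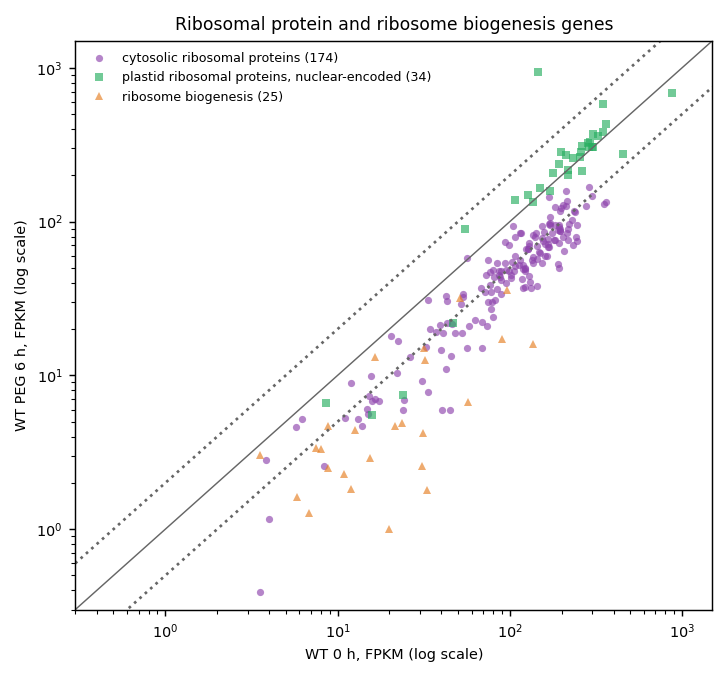
FPKM in WT after PEG (y axis, log scale) against WT at 0 h (x axis, log scale) for 174 cytosolic ribosomal protein genes, 34 plastid ribosomal protein genes and 25 ribosome biogenesis genes with values above 0 in both libraries; the solid line marks equal values and dotted lines 2-fold. Cytosolic ribosomal proteins follow a band around the lower dotted line, most ribosome biogenesis genes fall below it, and plastid ribosomal proteins lie around the solid line.

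Factors that work with the cytosolic ribosome had medians below 0 as well. Of 28 initiation factors 8 were lower (28.6%, beside 16.1% of all genes) and none higher (beside 15.8%), with a median log2 ratio of -0.74. Of 11 elongation factors 5 were lower (45.5%, median -1.0), and of 16 cytosolic aminoacyl-tRNA synthetases 6 were lower (37.5%, median -0.78). *LOS1*, the elongation factor eEF2 that moves the ribosome along the mRNA, had 78.1 FPKM after PEG and 192 FPKM at 0 h. The 4 genes of eEF1A, which brings aminoacyl-tRNA to the ribosome and whose copies are nearly identical, summed to 431 FPKM after PEG and 903.5 FPKM at 0 h, 2.1-fold lower. The eIF3 subunit genes *EIF3C* (24.4 FPKM after PEG and 63.3 FPKM at 0 h) and *EIF3E* (20.6 FPKM after PEG and 52.2 FPKM at 0 h) and the RNA helicase gene *EIF4A1* (56.8 FPKM after PEG and 118 FPKM at 0 h) were all lower. *PAB2*, a poly(A) binding protein gene, was at 115 FPKM after PEG and 112 FPKM at 0 h. Among synthetases *ATKRS-1*, for lysine, was 3.12-fold lower and *ALATS*, for alanine, stood at 34.1 FPKM after PEG and 54.1 FPKM at 0 h.

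In the TOR pathway, which ties ribosome production to nutrients, the kinase *TOR* itself was at 3.98 FPKM after PEG and 4.61 FPKM at 0 h, and its partners *RAPTOR1* (9.92 FPKM after PEG and 13.8 FPKM at 0 h) and *LST8-1* (57.5 FPKM after PEG and 47.9 FPKM at 0 h) were within 2-fold too. *S6K1*, a kinase that TOR activates, had 16.4 FPKM after PEG and 86.4 FPKM at 0 h, 5.28-fold lower (4.85 to 5.75). Both genes of its target, the small subunit protein S6, were lower: *RPS6A* had 58.6 FPKM after PEG and 167 FPKM at 0 h and *RPS6B* 92.6 FPKM after PEG and 192 FPKM at 0 h. *S6K2* was low in both libraries (1.68 FPKM after PEG and 2.49 FPKM at 0 h).

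Nuclear genes for plastid ribosomes, which translate the chloroplast's own mRNAs, summed to 9211 FPKM after PEG and 7964 FPKM at 0 h. Of 34 included, 23 had a ratio above 1, with a median log2 ratio of 0.14. In this list 3 were called lower (8.8%, beside 16.1% of all genes) and 1 higher (2.9%, beside 15.8%). The member called higher was *AT5G24490*, annotated as a 30S ribosomal protein, with 939 FPKM after PEG and 146 FPKM at 0 h, 6.42-fold higher (6.18 to 6.68). Those called lower were *AT2G20060* (7.47 FPKM after PEG and 24.1 FPKM at 0 h), *AT1G80620* (5.53 FPKM after PEG and 15.9 FPKM at 0 h) and *RFC3* (21.8 FPKM after PEG and 46.7 FPKM at 0 h).

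Starch breakdown had the highest median log2 ratio of the 6 carbon lists, 1.97. Of its 21 genes 14 were higher after PEG (66.7%, beside 15.8% of all genes) and 3 lower (14.3%, near the 16.1% of all genes). Enzymes along most of the route were higher. *SEX1*, the glucan water dikinase that phosphorylates the granule surface, had 246 FPKM after PEG and 16.8 FPKM at 0 h, 14.7-fold higher (13.9 to 15.6). *PWD*, the dikinase that acts after it, had 76.6 FPKM after PEG and 7.71 FPKM at 0 h, 9.94-fold higher (9.03 to 10.9), and *SEX4*, the phosphatase that removes these phosphates, had 114 FPKM after PEG and 9.61 FPKM at 0 h. *ISA3*, a debranching enzyme, had 82.4 FPKM after PEG and 1.64 FPKM at 0 h, 50.2-fold higher (39.6 to 64.8). *DPE1*, which recycles short glucans in the plastid, had 69.2 FPKM after PEG and 2.90 FPKM at 0 h, 23.9-fold higher (19.3 to 29.8). The α-glucan phosphorylases *PHS1*, in the plastid, and *PHS2*, in the cytosol, were 15.1-fold and 24.0-fold higher.

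The steps that follow showed both directions. The maltose exporter gene *MEX1* had 37.0 FPKM after PEG and 9.47 FPKM at 0 h, and *DPE2*, which uses the maltose in the cytosol, had 86.7 FPKM after PEG and 10.9 FPKM at 0 h. β-Amylases, which release maltose, ran the other way for the abundant members. *BAM3*, the main chloroplast form, had 99.7 FPKM after PEG and 249.98 FPKM at 0 h, 2.51-fold lower (2.41 to 2.61). *BAM1* was 3.25-fold lower, and *BAM9*, a further member of the family, had 1.15 FPKM after PEG and 112 FPKM at 0 h, 97.0-fold lower (69.9 to 139).

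Promoters of 4 of these genes are shown for motifs that plants use in light and clock regulated genes, the evening element (AAAATATCT) in *ISA3* and *PWD* and the G-box (CACGTG, its own reverse complement) in *DPE1* and *PHS1*. They are from RefSeq TAIR10.1, end at the base before the transcript start, and have the motif in capitals: *ISA3* at chr4:5783859-5783908 (plus strand), *PWD* at chr5:9261429-9261478 (plus), *DPE1* at chr5:25928880-25928929 (minus) and *PHS1* at chr3:11252557-11252806 (plus).
ISA3: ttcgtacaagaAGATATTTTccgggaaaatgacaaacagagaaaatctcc
PWD: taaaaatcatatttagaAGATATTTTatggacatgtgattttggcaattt
DPE1: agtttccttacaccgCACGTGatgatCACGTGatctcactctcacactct
PHS1: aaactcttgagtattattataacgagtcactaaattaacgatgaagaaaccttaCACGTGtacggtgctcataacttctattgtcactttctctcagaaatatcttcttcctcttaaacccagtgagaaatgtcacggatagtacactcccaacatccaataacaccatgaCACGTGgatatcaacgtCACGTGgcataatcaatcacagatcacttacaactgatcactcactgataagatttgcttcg
The evening element starts 39 bases before the start of *ISA3* and 33 bases before that of *PWD*, on the opposite strand in both. The G-boxes start 35 and 24 bases before the start of *DPE1* and 196, 79 and 62 bases before that of *PHS1*. An evening element on either strand was found in 9.5% of the 21 starch breakdown windows and in 2.6% of the 16020, and a G-box in 28.6% and 7.6%. Among all genes the evening element was in 6.4% of windows of higher genes, 1.4% of lower genes and 2.0% of those in neither set. For the G-box these shares were 8.9%, 7.7% and 7.3%.

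Starch synthesis genes were called in both directions, more often higher than lower. *GBSS1*, the granule-bound synthase that makes amylose, had 5.10 FPKM after PEG and 282 FPKM at 0 h, 55.3-fold lower (47.8 to 64.3), and it was at 4.07 FPKM in OX and 2.41 FPKM in *atbbd1*. In contrast, the branching enzyme gene *SBE2.1* had 120.0 FPKM after PEG and 12.0 FPKM at 0 h, 10-fold higher (9.14 to 11.0), and *SS4*, a synthase needed to start granules, had 49.1 FPKM after PEG and 11.2 FPKM at 0 h. The most abundant subunits of ADP-glucose pyrophosphorylase, which makes the glucosyl donor, were within 2-fold, with *APL1* at 171 FPKM after PEG and 188 FPKM at 0 h and *ADG1* at 133 FPKM after PEG and 158 FPKM at 0 h. In all, 7 of 17 genes were higher (41.2%, beside 15.8% of all genes) and 2 lower (11.8%, under the 16.1% of all genes). The sums were 813 FPKM after PEG and 891 FPKM at 0 h.

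**Figure D3:**
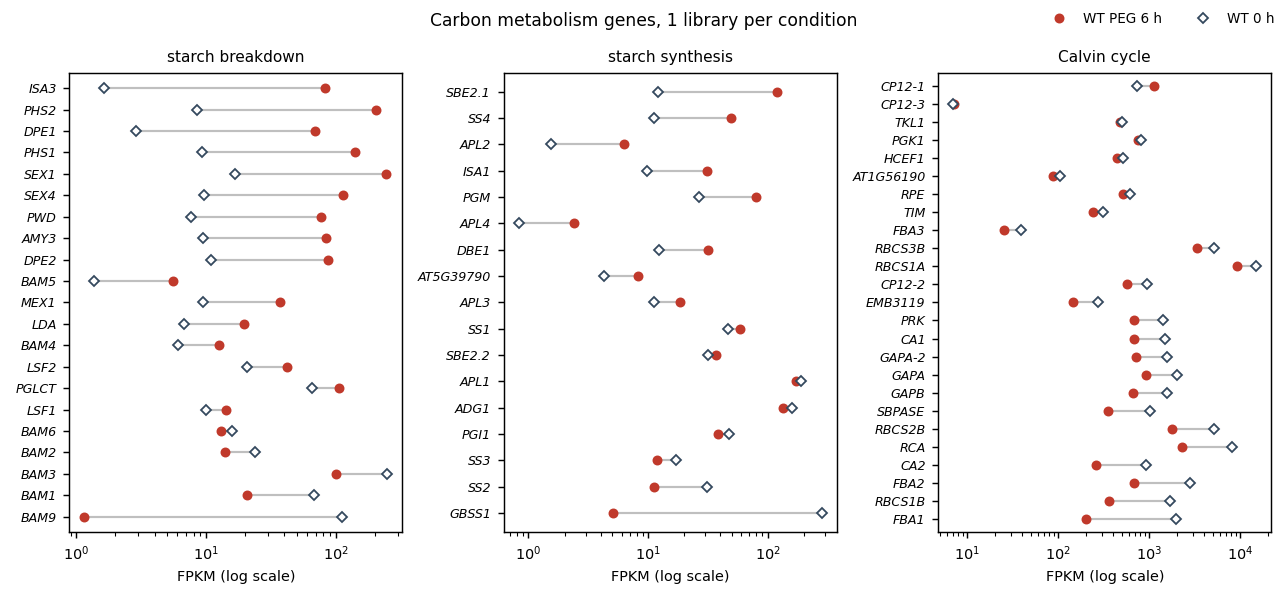
FPKM (x axis, log scale) of each member of the starch breakdown, starch synthesis and Calvin cycle lists (y axis, ordered by ratio) in WT after PEG (filled red circles) and WT at 0 h (open diamonds), 1 library each. Filled circles lie to the right for most starch breakdown genes and to the left for most Calvin cycle genes, and *BAM9* and *GBSS1* at the foot of their panels show the widest drops, 97.0-fold and 55.3-fold.

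Calvin cycle genes, which fix carbon dioxide into sugar phosphates, were lower as a group, with a median log2 ratio of -0.92. Of 25 genes 12 were called lower (48.0%, beside 16.1% of all genes) and none higher (beside 15.8%). They made up 4.21% of all FPKM after PEG and 9.01% at 0 h. *RCA*, rubisco activase, had 2286 FPKM after PEG and 8116 FPKM at 0 h, 3.55-fold lower (3.52 to 3.58), and stood at 1990 FPKM in OX and 2424 FPKM in *atbbd1*. The plastid aldolase genes *FBA1* (202 FPKM after PEG and 1965 FPKM at 0 h, 9.71-fold lower, 9.46 to 9.96) and *FBA2* (677 FPKM after PEG and 2835 FPKM at 0 h) and the bisphosphatase gene *SBPASE* (357 FPKM after PEG and 1027 FPKM at 0 h) were lower too. The 4 small subunit genes of rubisco, which can share reads, summed to 14800.3 FPKM after PEG and 27042 FPKM at 0 h, 1.83-fold lower, with *RBCS1A* at 9347 FPKM after PEG and 15027 FPKM at 0 h and *RBCS1B* at 359 FPKM after PEG and 1688 FPKM at 0 h. *CP12-1*, a regulator of the cycle in the dark, stood apart with 1127 FPKM after PEG and 732 FPKM at 0 h.

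Photorespiration, which recovers carbon when rubisco takes up oxygen, had 9 of 17 genes lower (52.9%, beside 16.1% of all genes) and none higher (beside 15.8%). The median log2 ratio was -1.01, and the list held 1.01% of all FPKM after PEG and 2.23% at 0 h. Peroxisomal *CAT2*, the catalase that removes hydrogen peroxide from this pathway, had 74.0 FPKM after PEG and 1683 FPKM at 0 h, 22.7-fold lower (21.95 to 23.56). The other catalases, looked up after this value was seen, were higher: *CAT3* had 1138 FPKM after PEG and 93.7 FPKM at 0 h, and *CAT1* 51.9 FPKM after PEG and 7.03 FPKM at 0 h. The glycolate oxidase gene *GOX1* had 474 FPKM after PEG and 1575 FPKM at 0 h. Glycine decarboxylase differed among its parts, since the P-protein genes *GLDP1* (268 FPKM after PEG and 1146 FPKM at 0 h) and *GLDP2* (51.5 FPKM after PEG and 302 FPKM at 0 h) were lower whereas the H-protein gene *GDCH* was at 581 FPKM after PEG and 536 FPKM at 0 h.

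Sucrose synthesis, cleavage and sugar transport had 11 of 31 genes higher (35.5%, beside 15.8% of all genes) and 7 lower (22.6%, beside 16.1%). The hexose transporter gene *STP13* had 34.7 FPKM after PEG and 1.82 FPKM at 0 h, 19.1-fold higher (15.1 to 24.5), *STP1*, of the same family, had 54.8 FPKM after PEG and 6.93 FPKM at 0 h, and the tonoplast gene *TMT1* had 14.3 FPKM after PEG and 1.1 FPKM at 0 h. The sucrose exporter gene *SWEET12* was 7.43-fold higher, whereas *SUC2*, which loads sucrose into the phloem, was 2.63-fold lower. The sucrose phosphate synthase gene *SPS4F* had 13.2 FPKM after PEG and 111 FPKM at 0 h, and the cell wall invertase gene *CWINV1* had 0.55 FPKM after PEG and 5.65 FPKM at 0 h. Among 22 organic acid genes 3 were higher and 3 lower, 13.6% in each direction, below the 15.8% and 16.1% of all genes. Among those called, NADP-malic enzyme *NADP-ME2* had 90.6 FPKM after PEG and 10.1 FPKM at 0 h, cytosolic fumarase *FUM2* had 91.9 FPKM after PEG and 14.6 FPKM at 0 h, and the vacuolar malate transporter *TDT* had 24.1 FPKM after PEG and 120.0 FPKM at 0 h.

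Nuclear genes of the light reactions were not lower with those of carbon fixation. The antenna list, which codes for the chlorophyll-binding proteins around both photosystems, made up 19.2% of all FPKM after PEG and 11.3% at 0 h, with a median log2 ratio of 0.54. Of its 21 genes 4 were higher (19.0%, near the 15.8% of all genes) and 1 lower (4.8%, beside 16.1%). The difference came largely from the *LHCB1* family, 5 near-identical genes of the main photosystem II antenna, which summed to 65937 FPKM after PEG and 28575 FPKM at 0 h, 2.31-fold higher. Its members differed, with *LHCB1.4* at 7581 FPKM after PEG and 696 FPKM at 0 h and *LHCB1.1* at 4964 FPKM after PEG and 5782 FPKM at 0 h. The 3 *LHCB2* genes, whose products share the same trimers, summed to 6284 FPKM after PEG and 7928 FPKM at 0 h. The minor antenna gene *LHCB4.3* was the member called lower, at 22.7 FPKM after PEG and 79.6 FPKM at 0 h.

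Of 29 nuclear photosystem genes 3 were higher (10.3%) and 2 lower (6.9%), below the shares of all genes (median log2 ratio 0.39, 13.4% of all FPKM after PEG and 10.8% at 0 h). At the end of the electron transport chain the members went opposite ways. *FNR2*, a ferredoxin-NADP reductase, had 1253 FPKM after PEG and 245 FPKM at 0 h, 5.12-fold higher, while its electron donors were lower, ferredoxin *FD1* with 110 FPKM after PEG and 879 FPKM at 0 h and *FD2* with 983 FPKM after PEG and 2863 FPKM at 0 h. *PSAE-2*, a photosystem I subunit, was 2.68-fold higher. *PSBR*, of photosystem II, was at 8624 FPKM after PEG and 6345 FPKM at 0 h.

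Of 18 genes that protect against excess light 8 were lower (44.4%, beside 16.1% of all genes) and 3 higher (16.7%, near the 15.8% of all genes), with a median log2 ratio of -0.58. The early light-induced proteins were nearly absent after PEG. *ELIP2* had 0.14 FPKM (2 reads) after PEG and 49.2 FPKM at 0 h, a 351-fold difference with an interval of 96.9 to 2907, and *ELIP1* had 0.31 FPKM after PEG and 22.3 FPKM at 0 h, 72.0-fold lower (30.8 to 225). *NPQ4*, the PsbS protein that triggers heat dissipation, had 407 FPKM after PEG and 1142 FPKM at 0 h. By contrast *NPQ1*, the violaxanthin de-epoxidase of the same process, had 125 FPKM after PEG and 22.1 FPKM at 0 h, 5.65-fold higher, and the plastid lipocalin gene *CHL* was 8.60-fold higher. *TAP38*, the phosphatase that returns antenna proteins to photosystem II, was 3.3-fold higher.

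Among 14 photoreceptor genes 3 were higher (21.4%, beside 15.8% of all genes) and 1 lower (7.1%, beside 16.1%). *FKF1*, a blue light receptor that measures day length, had 62.4 FPKM after PEG and was listed at 0 at 0 h, at least 691-fold higher with a floor of 3 reads. Its promoter (chr1:25508439-25508638, plus strand) is shown with that of the evening clock gene *TOC1* (chr5:24674763-24674962, plus strand), both from RefSeq TAIR10.1 with the evening element, here on the opposite strand, in capitals.
FKF1: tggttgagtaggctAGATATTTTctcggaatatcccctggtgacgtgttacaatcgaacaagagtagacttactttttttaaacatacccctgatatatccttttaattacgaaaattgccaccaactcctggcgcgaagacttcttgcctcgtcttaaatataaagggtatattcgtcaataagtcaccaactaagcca
TOC1: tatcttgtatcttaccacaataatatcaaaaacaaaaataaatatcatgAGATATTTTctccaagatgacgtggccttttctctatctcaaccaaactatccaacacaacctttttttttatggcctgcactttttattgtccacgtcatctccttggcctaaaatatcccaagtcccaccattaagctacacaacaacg
The element starts 186 bases before the start of *FKF1* and 151 bases before that of *TOC1*, and it was found in 42.9% of the 7 evening clock windows. *TOC1* had 52.7 FPKM after PEG and 1.77 FPKM at 0 h, 29.8-fold higher. The receptors *CRY2* (73.1 FPKM after PEG and 29.8 FPKM at 0 h) and *UVR8* (56.2 FPKM after PEG and 16.2 FPKM at 0 h) were higher, *CRY3* was lower (1.59 FPKM after PEG and 17.2 FPKM at 0 h), and *CRY1* differed little (79.0 FPKM after PEG and 77.4 FPKM at 0 h). *PHYA*, the far-red receptor, came just short of the threshold at 17.8 FPKM after PEG and 9.02 FPKM at 0 h, 1.97-fold (1.8 to 2.16).

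Downstream of the receptors, 9 of 33 light signalling genes were higher (27.3%, beside 15.8% of all genes) and 12 lower (36.4%, beside 16.1%). *HY5*, the bZIP factor that promotes light responses, had 1.92 FPKM after PEG and 9.97 FPKM at 0 h, 5.19-fold lower (3.64 to 7.55), and its homologue *HYH* had 1.39 FPKM after PEG and 61.2 FPKM at 0 h, 44.0-fold lower (27.2 to 75.7). *COP1*, the ligase component that marks HY5 for degradation, was lower as well (8.77 FPKM after PEG and 19.7 FPKM at 0 h). B-box factors that bind or act with HY5 ran both ways. *BBX22* had 70.5 FPKM after PEG and 1.99 FPKM at 0 h, 35.4-fold higher (26.9 to 47.4), while *BBX32* had 0.25 FPKM after PEG and 12.1 FPKM at 0 h and *BBX31* 0.40 FPKM after PEG and 8.59 FPKM at 0 h. The phototropism genes *NPH3* (28.2 FPKM after PEG and 4.91 FPKM at 0 h) and *RPT2* (45.7 FPKM after PEG and 291 FPKM at 0 h) were on opposite sides. *FHY1*, which carries phytochrome A into the nucleus, was 11.9-fold higher.

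**Figure D4:**
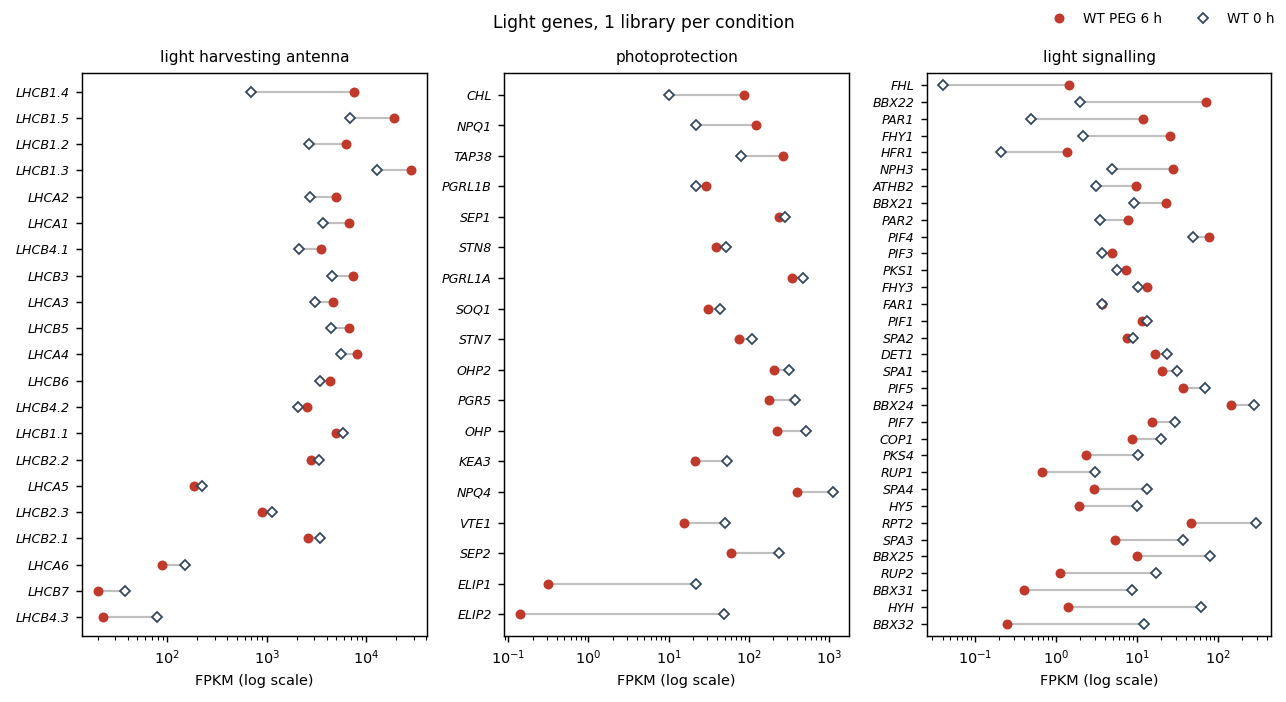
FPKM (x axis, log scale) of each member of the light harvesting antenna, photoprotection and light signalling lists (y axis, ordered by ratio) in WT after PEG (filled red circles) and WT at 0 h (open diamonds), 1 library each. *LHCB1.4*, *CHL* and *BBX22* are near the top of their panels, and *ELIP2* shows the widest drop, 0.14 FPKM after PEG against 49.2 FPKM at 0 h.

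Cell wall genes did not move as one group, and the clearest difference was in phenylpropanoid synthesis, which feeds both lignin and flavonoids. In the lignin and phenylpropanoid entry list 13 of 16 genes were lower (81.2%, beside 16.1% of all genes) and none higher (beside 15.8%). The median log2 ratio was -1.31, and the sums were 399.8 FPKM after PEG and 1485 FPKM at 0 h. *PAL1*, phenylalanine ammonia-lyase at the first step, had 4.71 FPKM after PEG and 125 FPKM at 0 h, 26.6-fold lower (23.2 to 30.6), and *PAL2* had 11.9 FPKM after PEG and 122 FPKM at 0 h. *C4H*, at the next step, had 18.1 FPKM after PEG and 120.4 FPKM at 0 h. The ligase gene *4CL3*, whose product serves flavonoids rather than lignin, had 0.63 FPKM after PEG and 37.4 FPKM at 0 h, 59.4-fold lower (38.9 to 94.8). The lignin genes *CAD4* (14.5 FPKM after PEG and 206 FPKM at 0 h) and *CCoAOMT1* (124 FPKM after PEG and 245 FPKM at 0 h, 1.98-fold) were below 1 too, and *CAD5* was not (13.4 FPKM after PEG and 11.2 FPKM at 0 h). Outside the list, the flavonoid genes *TT4*, chalcone synthase, and *FLS1*, flavonol synthase, were 80.8-fold (67.6 to 97.6) and 83.9-fold (51.6 to 148) lower, among the 15 lowest ratios of all genes that reached 10 FPKM.

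Xyloglucan endotransglucosylases cut and rejoin the tethers between cellulose fibrils. Of their 15 genes included, 6 were higher (40%, beside 15.8% of all genes) and 5 lower (33.3%, beside 16.1%). The abundant ones were lower and the scarce ones higher, so the FPKM sum was 286 after PEG and 829.5 at 0 h although the median log2 ratio was 0.34. That median was -0.82 among members reaching 5 FPKM. *XTH6* had 26.4 FPKM after PEG and 244 FPKM at 0 h, 9.24-fold lower (8.5 to 10.06), and *XTH7* had 36.3 FPKM after PEG and 211 FPKM at 0 h. *XTH22*, a gene known for its response to touch, had 5.4 FPKM after PEG and 1.19 FPKM at 0 h, and *XTH9* had 15.6 FPKM after PEG and 4.70 FPKM at 0 h. Of 13 α-expansins, which loosen walls at low pH, 4 were higher (30.8%, beside 15.8% of all genes) and 1 lower (7.7%, beside 16.1%). *EXPA8* was at 151 FPKM after PEG and 49.8 FPKM at 0 h, and the most abundant, *EXPA1*, at 198 FPKM after PEG and 214 FPKM at 0 h.

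Pectin genes were higher in 5 of 19 cases (26.3%, beside 15.8% of all genes) and lower in 1 (5.3%, beside 16.1%), with sums of 399.9 FPKM after PEG and 183.9 FPKM at 0 h. *AT5G62360*, annotated as an inhibitor of invertases and pectin methylesterases, had 93.6 FPKM after PEG and 0.74 FPKM at 0 h, 126-fold higher (70.2 to 253). *PME3*, a pectin methylesterase, had 77.4 FPKM after PEG and 7.30 FPKM at 0 h, 10.6-fold higher (9.34 to 12.1). *PMR5* and *PMR6*, first found by their powdery mildew resistance and needed for normal pectin, had 9.91 and 34.7 FPKM after PEG, against 0.40 and 6.86 FPKM at 0 h.

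The cellulose synthase complex of the primary wall was close to level between the libraries. *CESA1* had 56.7 FPKM after PEG and 51.1 FPKM at 0 h, *CESA3* 57.8 FPKM after PEG and 46.7 FPKM at 0 h, and *CESA6* 35.8 FPKM after PEG and 30.6 FPKM at 0 h. Its helpers *CTL1* (184.2 FPKM after PEG and 183.9 FPKM at 0 h), *KOR1* (66.1 FPKM after PEG and 67.0 FPKM at 0 h) and *COB* (64.5 FPKM after PEG and 37.1 FPKM at 0 h) were also within 2-fold. Only *CESA5*, an alternative subunit, was called among the 9 genes, at 15.8 FPKM after PEG and 45.6 FPKM at 0 h. That is 11.1% lower and none higher, beside 16.1% and 15.8% of all genes. Secondary wall genes were barely expressed in these leaves: 5 of 13 were included and the highest, *IRX14*, was at 6.99 FPKM after PEG and 5.94 FPKM at 0 h. Of 29 arabinogalactan and structural wall protein genes 5 were higher (17.2%) and 7 lower (24.1%), near the 15.8% and 16.1% of all genes. The glycine-rich protein genes *GRP3* (957 FPKM after PEG and 359.9 FPKM at 0 h) and *GRP-3S* (1029.8 FPKM after PEG and 565 FPKM at 0 h) held most of their FPKM.

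Calls in both directions were found within the lists for nitrate reduction, nitrate transport and ammonium assimilation, as over all genes. Of 13 nitrate and nitrite reduction genes 2 (15.4%) were higher and 1 (7.7%) lower, below or near the 15.8% and 16.1% of all genes. Nitrate reductase, which makes nitrite from nitrate, is encoded by *NIA1* and *NIA2*. *NIA2* had 28.6 FPKM after PEG and 144 FPKM at 0 h, 5.02-fold lower (4.74 to 5.32), and stood at 16.5 FPKM in OX and 8.85 FPKM in *atbbd1*, whereas *NIA1* had 9.53 FPKM in WT after PEG and 13.5 FPKM at 0 h. The nitrite reductase gene *NIR1* was at 48.9 FPKM after PEG and 73.2 FPKM at 0 h. Among 12 nitrate transporter genes 4 were higher (33.3%, beside 15.8% of all genes) and 4 lower (33.3%, beside 16.1%). *NRT1.1*, the transporter that also senses nitrate, had 11.4 FPKM after PEG and 53.4 FPKM at 0 h. *NRT1.12*, which moves nitrate within the shoot, had 8.08 FPKM after PEG and 0.78 FPKM at 0 h, and *NRT1.7*, which loads it into the phloem of old leaves, had 33.7 FPKM after PEG and 15.4 FPKM at 0 h. In nitrogen signalling *NLP7*, a main nitrate-responsive regulator, was at 15.2 FPKM after PEG and 21.7 FPKM at 0 h, and *BT2*, a scaffold protein repressed by sugar, had 6.16 FPKM after PEG and 0.10 FPKM (4 reads) at 0 h, 61.6-fold higher (23.9 to 229).

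Ammonium assimilation genes differed among isoforms of the same enzyme, and the median log2 ratio of 22 genes was 0.06, -0.08 without the filter on FPKM and -0.41 among members reaching 5 FPKM. *AMT1;2*, an ammonium transporter, had 1.53 FPKM after PEG and 85.4 FPKM at 0 h, 55.8-fold lower (42.5 to 75). Plastid glutamine synthetase *GS2* had 552 FPKM after PEG and 965 FPKM at 0 h, and its partner, the glutamate synthase *GLU1*, had 167 FPKM after PEG and 359.5 FPKM at 0 h. Of the cytosolic glutamine synthetases *GLN1;2* was lower (119 FPKM after PEG and 535 FPKM at 0 h), and *GLN1;1* (109 FPKM after PEG and 28.7 FPKM at 0 h) and *GLN1;3* (9.90 FPKM after PEG and 3.19 FPKM at 0 h) were higher. *ASN1*, the asparagine synthetase known from dark-treated and carbon-starved leaves, had 4.98 FPKM after PEG and 0.40 FPKM at 0 h, 12.4-fold higher (7.52 to 21.6). The glutamate dehydrogenase gene *GDH2* was 3.98-fold higher.

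**Figure D5:**
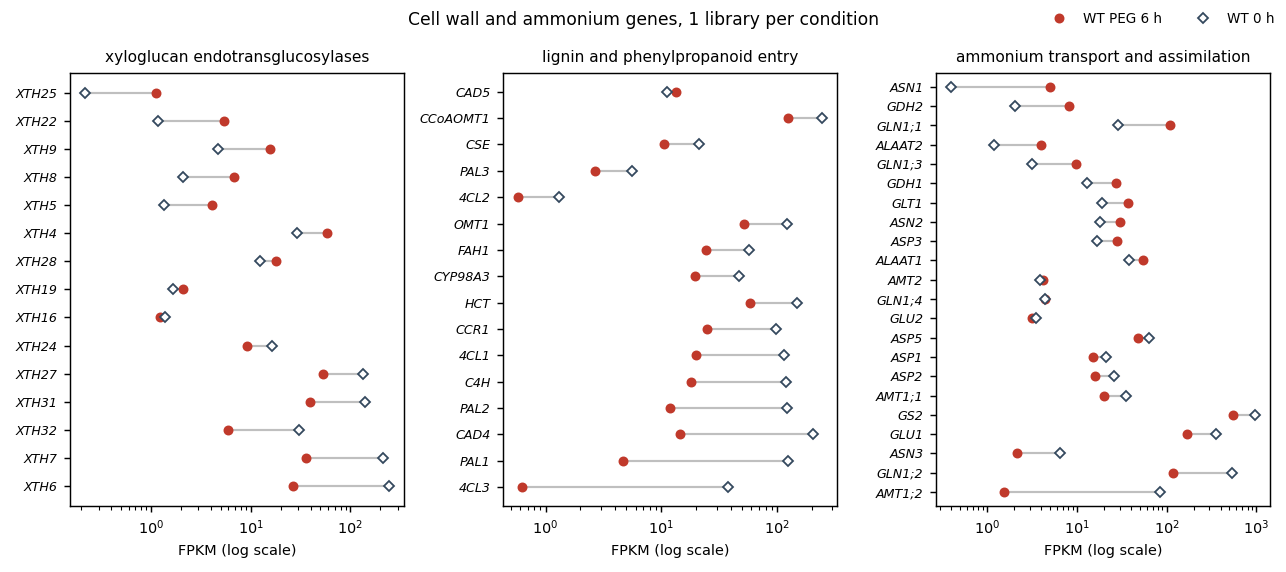
FPKM (x axis, log scale) of each member of the xyloglucan endotransglucosylase, lignin and phenylpropanoid entry, and ammonium transport and assimilation lists (y axis, ordered by ratio) in WT after PEG (filled red circles) and WT at 0 h (open diamonds), 1 library each. Nearly all phenylpropanoid genes have the filled circle to the left, the abundant *XTH6* and *XTH7* stand at the foot of their panel, and *AMT1;2* shows the widest drop among ammonium genes, 55.8-fold.

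Amino acid catabolism and transport had 7 of 21 genes higher (33.3%, beside 15.8% of all genes) and 5 lower (23.8%, beside 16.1%). The median log2 ratio was 0.84. *POP2*, the transaminase that breaks down γ-aminobutyrate, had 69.6 FPKM after PEG and 9.47 FPKM at 0 h, and *HGO*, in tyrosine breakdown, had 19.2 FPKM after PEG and 6.48 FPKM at 0 h. The amino acid permeases *AAP2* (20.1 FPKM after PEG and 57.9 FPKM at 0 h) and *AAP6* (7.38 FPKM after PEG and 18.9 FPKM at 0 h) were lower, and *LHT1* was higher (6.70 FPKM after PEG and 1.77 FPKM at 0 h). Autophagy genes, which recycle cytoplasm, had 4 of 20 higher (20.0%, near the 15.8% of all genes) and none lower (16.1% of all genes), with a median log2 ratio of 0.66. The higher ones included *ATG8D* (26.3 FPKM after PEG and 8.03 FPKM at 0 h) and the cargo receptor gene *NBR1* (97.1 FPKM after PEG and 38.5 FPKM at 0 h).

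Sulfate assimilation was lower through most of its route, with a median log2 ratio of -1.56. Of 17 genes 9 were lower (52.9%, beside 16.1% of all genes) and 1 higher (5.9%, beside 15.8%). *APS1*, ATP sulfurylase, had 94.0 FPKM after PEG and 409 FPKM at 0 h. *APR2*, which reduces the activated sulfate, had 11.9 FPKM after PEG and 319 FPKM at 0 h, 26.8-fold lower (24.1 to 29.7), and *APR1* had 15.2 FPKM after PEG and 123 FPKM at 0 h. The sulfite reductase gene *SIR* had 40.3 FPKM after PEG and 119 FPKM at 0 h, while *OASA1*, which makes cysteine, was level (175 FPKM after PEG and 166 FPKM at 0 h).

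The largest ratios over all genes fell partly outside these lists. Among genes reaching 10 FPKM and listed at 0 at 0 h were the clock gene *PRR5* (76.5 FPKM after PEG, at least 656-fold higher), the plant defensin gene *PDF1.3* (153 FPKM, at least 483-fold higher) and the monoterpene synthase gene *TPS03* (27.3 FPKM, at least 355-fold higher). *PDF1.3* stood at 63.9 FPKM in OX and 0.38 FPKM in *atbbd1* after PEG, and its reads can be shared with *PDF1.2* copies. *AT5G23240*, annotated as a DNAJ protein, had 218 FPKM after PEG and 0.11 FPKM (3 reads) at 0 h, a ratio of 1979 with an interval of 652 to 9245. Of the drought and ABA marker genes, *COR15A* (939 FPKM after PEG and 30.1 FPKM at 0 h) and *RD29A* (422 FPKM after PEG and 6.17 FPKM at 0 h) were higher. The RNA-binding gene *GRP7* (2446 FPKM after PEG and 8.68 FPKM at 0 h, looked up after its value was seen) was higher too. *LHY*, the morning clock factor, was 279-fold lower (189 to 439) with 0.45 FPKM after PEG and 125 FPKM at 0 h. Lower too were the cysteine proteinase gene *AT2G27420* (0.14 FPKM, 3 reads, after PEG and 96.2 FPKM at 0 h, 687-fold, 234 to 3327), the NAD synthesis gene *AO* (0.22 FPKM after PEG and 21.6 FPKM at 0 h) and the polyamine synthesis gene *AT5G15950* (5.36 FPKM after PEG and 312 FPKM at 0 h). Of 16 heat shock and folding genes 7 were lower (43.8%, beside 16.1% of all genes) and 3 higher (18.8%, near the 15.8% of all genes). Among the lower ones *HSP70* was at 1.46 FPKM after PEG and 31.8 FPKM at 0 h. Of 15 cell cycle and histone genes 2 were higher (13.3%) and 1 lower (6.7%), under the shares of all genes, with a median log2 ratio of -0.05.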

How the data were processed

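Total RNA of leaves was made into mRNA libraries, 1 per condition, with a TruSeq kit that the paper calls stranded and the labels call standard. The deposited table holds FPKM, which the authors normalized to mapped fragments and transcript length; the processing notes name TopHat2, Cufflinks and TAIR10, and the paper names HISAT2 with default parameters, and RPKM. No strand setting for mapping or counting is stated, so overlapping and antisense genes may share reads. Genes at or above 1 FPKM in either WT library were kept. A call needed a 2-fold ratio with no pseudocount.

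Library totals were those that turned FPKM, with exon lengths of TAIR10.1, into whole reads most often (tolerance 0.15). The search used genes with 1 annotated transcript, exon lengths up to 2000 bases and values up to 40 reads. Of those values 99.3% gave whole reads in each WT library, against medians of 24.8% (PEG) and 25.0% (0 h) at other totals. Genes with more transcripts also have intervals, though whole reads were not checked for them, and 8119 of the 16110 genes have 1 transcript. Intervals are exact Clopper-Pearson intervals at 95%, and a value of 0 was bounded with 3 reads in that library. The reads recovered made up 92.0% (PEG) and 94.1% (0 h) of the totals.

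The 43 lists (964 loci, 13 dropped where the annotation did not carry the role) and the members were chosen with earlier results of these data known. The ribosomal protein lists were taken from annotation notes, and products named as mitochondrial were left out. Products of some ribosomal protein families were also left out of the plastid list by name. Genes of other ribosomes or of ribosome assembly that carry such notes can remain in them. Genes that the annotation places in both cytosolic and plastid ribosomes were counted as plastid after their values were seen. Genes named were the 15 highest and 15 lowest ratios among genes of at least 10 FPKM, the 10 most abundant per library, per list the 3 highest and 3 lowest ratios among members of at least 5 FPKM and the most abundant member, every member of lists with 10 or fewer kept, and *NIA1*, *NIA2*, *GBSS1*, *ASN1*, *CESA1*, *RCA*, *PHYA* and *HY5*. Further members were named after their values were seen. Python 3.11.15, numpy 2.4.6, pandas 2.3.3, scipy 1.17.1 and matplotlib 3.10.9 were used, and the steps were tested on simulated data. No test across genes or lists was run.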

Additional observations from a re-analysis of the deposited data

How the results depend on the processing

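No paired analysis was possible because each condition had 1 library, so no replicate could be left out either. The alternatives were no filter or one of 5 FPKM, a pseudocount of 1 or 0.1 FPKM, a 4-fold threshold, median-of-ratios scaling (factor 1.0166) and a common FPKM sum (factor 1.0399). Without the filter 3894 genes were higher and 4169 lower, and at 4-fold 940 and 846; under the others the counts stayed within 1.5 times of 2553 and 2601. Of the list medians, 236 recomputed values moved little and 27 moved more. For xyloglucan endotransglucosylases the median log2 ratio was 0.93 without the filter and -0.82 at 5 FPKM, so its sign depends on the filter, and for ammonium genes it was -0.41 at 5 FPKM. A pseudocount of 1 gave -1.78 for ribosome biogenesis, 1.47 for starch breakdown and -1.16 for sulfate assimilation, which was at -1.10 without the filter. The common sum gave -0.97 for the Calvin cycle, -1.07 for photorespiration and 0.48 for the antenna, which was at 0.52 with median-of-ratios scaling. Of 282 named ratios, 2 crossed the 2-fold threshold under rescaling. The number of cytosolic ribosomal protein genes called lower was 108 to 116 over the alternatives at 2-fold. Depth limits genes with few reads at one time, whose intervals are wide, and no value has a measure of variation between plants.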
